A study of Rattus norvegicus with 56 samples.

Results

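The histone genes of the rat kidney were followed through the first hours of ureteral obstruction in 2 microdissected tubule segments. They were taken as every gene whose symbol in the table of the earlier time begins with Hist1h, Hist2h, Hist3h, H1f, H2af or H3f, which gave 57 loci among the 32883 genes measured. Of these, 9 are linker histone genes, 38 are core histone genes of the replication-dependent clusters and 10 are histone variant genes. The loci were carried to the table of the later time by Ensembl identifier, where 17 of them have another name (15 core and 2 variant loci).

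The animals were male Sprague-Dawley rats of 120 to 160 g, and no allele or transgene is named. In the obstructed group the left ureter was tied close to the renal pelvis (unilateral ureteral obstruction, UUO), and in the sham group it was exposed through the same incision but not tied. Cortical collecting ducts (CCD) and cortical thick ascending limbs (cTAL) were dissected 30 min or 3 h later, with 4 numbered replicates in each of the 8 groups. A CCD number has 2 libraries and a cTAL number has 1, so 48 libraries were used. The labels do not say which numbers come from separate rats, so p-values measure the spread between the numbered samples. RNA is labelled as polyadenylated, and 15 PCR cycles followed cDNA synthesis with SMARTer V4 reagents. Values are TPM, a transcript level scaled to a fixed total per library, from which sequencing depth cannot be read, so depth is unknown. The tables of the 2 times were made separately, so levels are compared within a time, and no test of a difference between times was made.

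Histones package DNA. Pairs of H2A, H2B, H3 and H4 form the nucleosome core, and linker histone H1 binds where the DNA enters and leaves it. Genes of the clusters make most histone during DNA replication, and their messages end in a stem-loop in place of a poly(A) tail, so a method that starts from poly(A) captures mainly their polyadenylated forms. Variant genes such as those of H3.3, H2A.Z and macroH2A are made throughout the cell cycle, have poly(A) tails and replace the core forms at particular places in chromatin.

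Each library at 30 min had 8744 to 11916 genes that reached 1 TPM, and each at 3 h had 9585 to 10750. The segments carried their markers. Summed TPM of 8 principal cell markers was 5503 to 18653 in CCD and 52.4 to 618 in cTAL, and that of 6 thick ascending limb markers was 31341 to 75618 in cTAL and 199.99 to 10030 in CCD. Of the CCD libraries, 4 stood apart: UUO replicate 2 library 2 at 30 min had the fewest genes, and sham replicates 1 and 3 library 1 and UUO replicate 4 library 2 at 3 h held 6941, 7957 and 18235 TPM of Umod, a thick ascending limb gene. In cTAL at 3 h, sham replicate 1 held 361 TPM of the collecting duct water channel gene Aqp2, against 0.34 to 4.34 TPM in the other sham replicates. Markers of other cells moved with obstruction at 3 h and are given beside the results.

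A locus entered a comparison if it reached 1 TPM in at least 4 replicates. In CCD 34 of the 57 histone loci did so at each time, and in cTAL 22 did at 30 min and 23 at 3 h. Across the 4 tests of obstruction 37 loci passed at least once, 20 never passed, and 2 of these (H2afb3 and Hist1h2aa) are listed at 0 in every library. Because the TPM of a message without a poly(A) tail depends on capture, a low level here is a level in this preparation.

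Variant genes made up most of the histone signal. Their summed TPM in sham CCD was 5296 ± 875 at 30 min and 5277 ± 436 at 3 h, and in sham cTAL 3133 ± 484 and 3426 ± 210 (mean ± SD, n = 4, as throughout). The 9 linker genes summed to 1424 ± 379 and 850.2 ± 221 TPM in sham CCD and to 438 ± 204 and 129 ± 43.4 TPM in sham cTAL. The 38 core loci summed to 429 ± 67.8 and 658 ± 206 TPM in sham CCD and to 93.2 ± 18.8 and 105 ± 51.7 TPM in sham cTAL. In every class at both times, the lowest sham CCD replicate lay above the highest sham cTAL replicate. At 3 h the linker sum in cTAL was 80.3 to 186 TPM in sham and 478 to 1061 TPM in UUO, with no overlap, whereas in CCD it was 573 to 1088 TPM in sham and 342 to 586 TPM in UUO. The variant sum in cTAL at 3 h was likewise without overlap, at 3230 to 3639 TPM in sham and 4372 to 6339 TPM in UUO. Without ENSRNOG00000006532, 1 of the 2 H3.3 genes, the variant sum was 2347 to 2666 TPM in sham and 1872 to 2444 TPM in UUO, which overlapped and lay mostly lower. The core sum in CCD at 30 min was 351 to 515 TPM in sham and 241 to 301 TPM in UUO, also without overlap. No test was made on these sums.

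**Figure D1:**
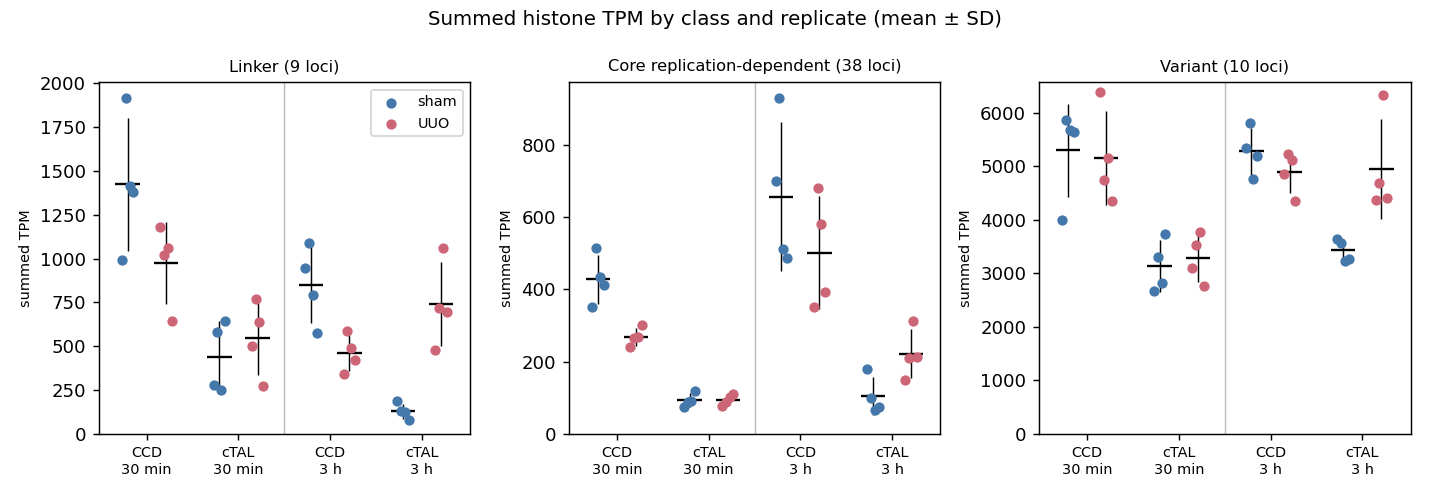
Summed TPM of the linker, core and variant histone loci in each of 4 replicates of sham and UUO, by segment and time, with the mean ± SD as black lines. At 3 h the linker sum lies at 478 to 1061 TPM in UUO cTAL and at 80.3 to 186 TPM in sham cTAL, and the vertical line separates the tables of the 2 times.

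The first question was which histone genes obstruction changed in cTAL at 3 h. Of 23 loci tested, 3 rose and none fell: the linker gene Hist1h1c, the H3.3 gene ENSRNOG00000006532 and the H2A variant gene H2afj. The last passed the filter only through UUO, the group in which it was high, so its call is given as a description. Among all 10023 genes tested in that comparison, 11.7% were called in either direction, 4.06% higher and 7.64% lower. Arms without overlap were seen for these 3 of the 23 loci only, a share not above the 19.8% of all genes tested. A gene was called at an adjusted p under 0.05 (limma on log2(TPM + 1), Benjamini-Hochberg over all genes tested).

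Hist1h1c (ENSRNOG00000054978) encodes H1.2, one of the somatic linker histones of the large cluster. In cTAL at 3 h its TPM were 163, 121, 101 and 70.9 in sham replicates 1 to 4 and 453, 685, 1037 and 661 in UUO replicates 1 to 4. Every UUO replicate lay above every sham replicate, and the lowest UUO value was well clear of the highest sham value. The log2 change was 2.63 ± 0.28 (SE), or 6.18-fold on the log2(TPM + 1) scale (limma adjusted p = 0.00113). It kept its call under all 14 alternatives tried, with log2 changes of 2.42 to 2.82, among them the fit without sham replicate 1, the library with Aqp2 (2.82, adjusted p = 0.00215).

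H3.3 is the replication-independent form of H3 and is encoded by 2 genes. The deposited tables exchange their names: ENSRNOG00000006532 is H3f3a at 30 min and H3f3b at 3 h, and ENSRNOG00000003220 is the reverse, so both are given by identifier. In cTAL at 3 h ENSRNOG00000006532 measured 973, 1129, 883 and 911 TPM in sham and 1928, 2449, 4466 and 2398 TPM in UUO. The groups did not overlap, and UUO replicate 3 was the highest. The log2 change was 1.46 ± 0.22 (adjusted p = 0.00498), and the call was kept under all 14 alternatives. The second H3.3 gene, ENSRNOG00000003220, measured 1175, 1068, 1027 and 1111 TPM in sham and 1125, 1071, 817 and 808 TPM in UUO, with a log2 difference of -0.21 ± 0.13 (adjusted p = 0.306). Thus these 2 genes for the same variant differed in whether their change was called, and the difference between them was not tested.

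H2afj (ENSRNOG00000045819) encodes H2A.J, an H2A variant of mammals. In cTAL at 3 h it is listed at 0 in sham replicates 1, 2 and 4 and at 3.71 TPM in sham replicate 3, and it measured 5.55, 6.66, 11.1 and 19.9 TPM in UUO. All UUO replicates lay above all sham replicates. The log2 change was 2.85 ± 0.57 (adjusted p = 0.0148) with a pseudocount of 1 TPM and 5.27 with 0.1 TPM, so its size is set by the pseudocount. Only 1 sham replicate reached 1 TPM, so the locus was tested only because of its level in UUO. Zeros of this gene were common elsewhere too: it is listed at 0 in 5 of 8 UUO and 3 of 8 sham CCD libraries at 3 h.

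The 20 other loci tested in cTAL at 3 h did not pass. Hist1h1e, which encodes the linker histone H1.4, measured 15.7, 4.93, 19.7 and 9.40 TPM in sham and 23.8, 22.9, 15.3 and 29.4 TPM in UUO (log2 difference 0.95 ± 0.38, adjusted p = 0.136). The arms overlapped, since UUO replicate 3 lay below sham replicates 1 and 3. The locus named Hist1h1d in the tables, a linker symbol that RefSeq attaches to other genes so that it was left unmatched here, differed by 1.18 ± 0.72 on the log2 scale (adjusted p = 0.320). The other variant genes were less than 1 log2 unit from sham: H2afx (H2A.X, the variant phosphorylated at DNA breaks) 0.74 ± 0.53, H2afy (macroH2A1) 0.23 ± 0.23, H2afv (H2A.Z.2) 0.06 ± 0.25 and H2afz (H2A.Z.1) -0.29 ± 0.14, none called. None of the 12 core loci tested was called, and their log2 differences ran from -0.55 for Hist1h2an to 2.11 for the pair Hist2h2aa2 and Hist2h2aa3. The median log2 difference of the 23 histone loci was 0.60, beside -0.12 over all genes tested. Leaving out UUO replicate 1 raised the count called higher from 3 to 6, adding Hist3h2ba, Hist2h2aa2 and Hist2h2aa3. The last 2 had equal values in every cTAL library, so they hold 1 measurement. The share of all genes called in that fit was not counted.

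**Figure D2:**
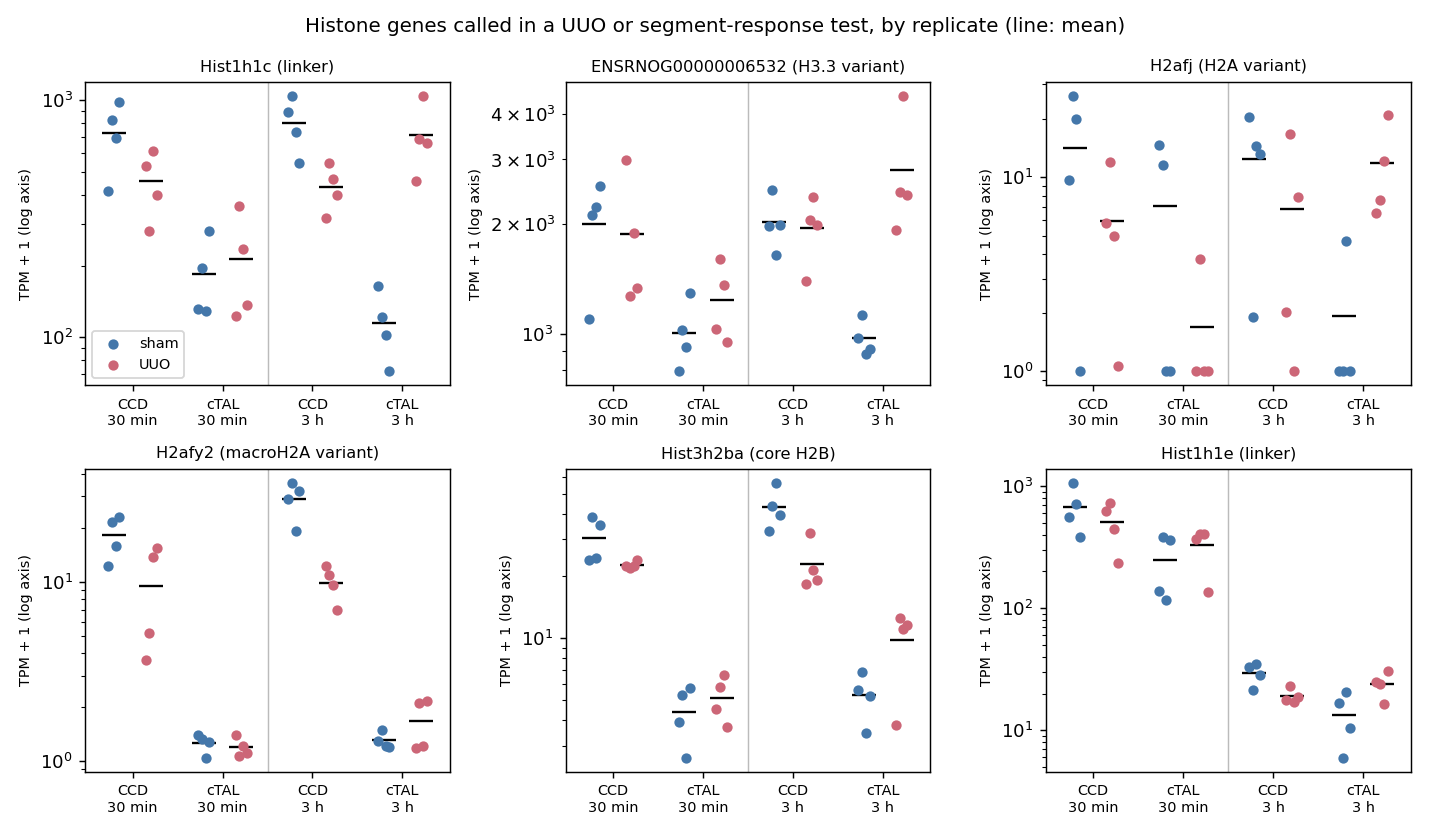
TPM + 1 on a log axis for 6 histone genes in each of 4 replicates of sham and UUO, by segment and time, with a black line at the mean. Hist1h1c, ENSRNOG00000006532 and H2afj lie higher in UUO than in sham cTAL at 3 h, and H2afy2 and Hist3h2ba lie lower in UUO than in sham CCD at 3 h.

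In CCD at 3 h the called histone genes were lower. Of 34 loci tested, 3 fell and none rose: H2afy2, Hist3h2ba and Hist1h1c. Among all 10530 genes tested, 13.0% were called and 8.04% were called lower. The share of histone loci called, 3 of 34, is close to that background.

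H2afy2 (ENSRNOG00000024751) encodes macroH2A2, a large H2A variant with an added macro domain. Its TPM in CCD at 3 h were 27.8, 34.6, 18.2 and 31.1 in sham and 11.2, 9.88, 8.58 and 6.0 in UUO. The arms did not overlap. The log2 change was -1.57 ± 0.24 (adjusted p = 0.00762), and the call was kept under all 17 alternatives. In cTAL the gene stayed under the filter in the test of obstruction at both times, at 1.16 TPM or less in every replicate.

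Hist3h2ba (ENSRNOG00000043419) is an H2B gene of a small separate cluster. It measured 32.1, 42.8, 55.4 and 38.3 TPM in sham CCD at 3 h and 17.3, 31.3, 20.3 and 18.2 TPM in UUO CCD. The highest UUO replicate, number 2, lay just under the lowest sham replicate. The log2 change was -1.01 ± 0.22 (adjusted p = 0.0189). The call was lost without sham replicate 2, and with library 1 of each number alone, where the log2 difference was -0.60.

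Hist1h1c, which rose in cTAL, measured 893, 1039, 733 and 541 TPM in sham CCD at 3 h and 316, 544, 466 and 397 TPM in UUO CCD. The arms touched, since UUO replicate 2 lay just above sham replicate 4. The log2 change was -0.89 ± 0.21 (adjusted p = 0.0268). The call was lost in 7 of 17 alternatives, among them 4 of the 8 fits that leave out 1 replicate (sham 1, 2 or 3 or UUO 4) and library 1 of each number alone (-0.68, adjusted p = 0.145). Without the CCD libraries that stood apart, H2afy2 (-1.48), Hist3h2ba (-0.89) and Hist1h1c (-0.94) all stayed called, and 3 histone loci were called lower as before.

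The other 31 loci did not pass in CCD at 3 h. Hist1h1e measured 32.1, 20.5, 33.7 and 27.2 TPM in sham and 16.7, 22.04, 15.9 and 17.8 TPM in UUO (-0.65 ± 0.19, adjusted p = 0.0553). H2afz, the most abundant H2A variant gene, measured 878, 923, 908 and 923 TPM in sham and 837, 828, 841 and 681 TPM in UUO. Its arms did not overlap, but the difference was small (-0.19 ± 0.09, adjusted p = 0.174). Arms without overlap were seen for 3 of the 34 loci (H2afy2, Hist3h2ba and H2afz), beside 21.3% of all genes tested. ENSRNOG00000006532, called in cTAL, measured 1976, 2467, 1647 and 1982 TPM in sham CCD and 1394, 2049, 2369 and 1981 TPM in UUO CCD (-0.07 ± 0.17, adjusted p = 0.811). Of the 34 loci, 30 had a log2 difference below 0, with a median of -0.41 beside -0.14 over all genes. Without sham replicate 4 the count called lower was 6 in place of 3, with Hist2h2be, Hist1h2bl and a Hist2h3c2 locus (ENSRNOG00000061185) added. The share of all genes called in that fit was not counted. Of the 34 loci, 3 entered the comparison through 1 arm only, Hist1h2bl among them, so its call is a description. The counts of direction include these 3 loci.

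**Figure D3:**
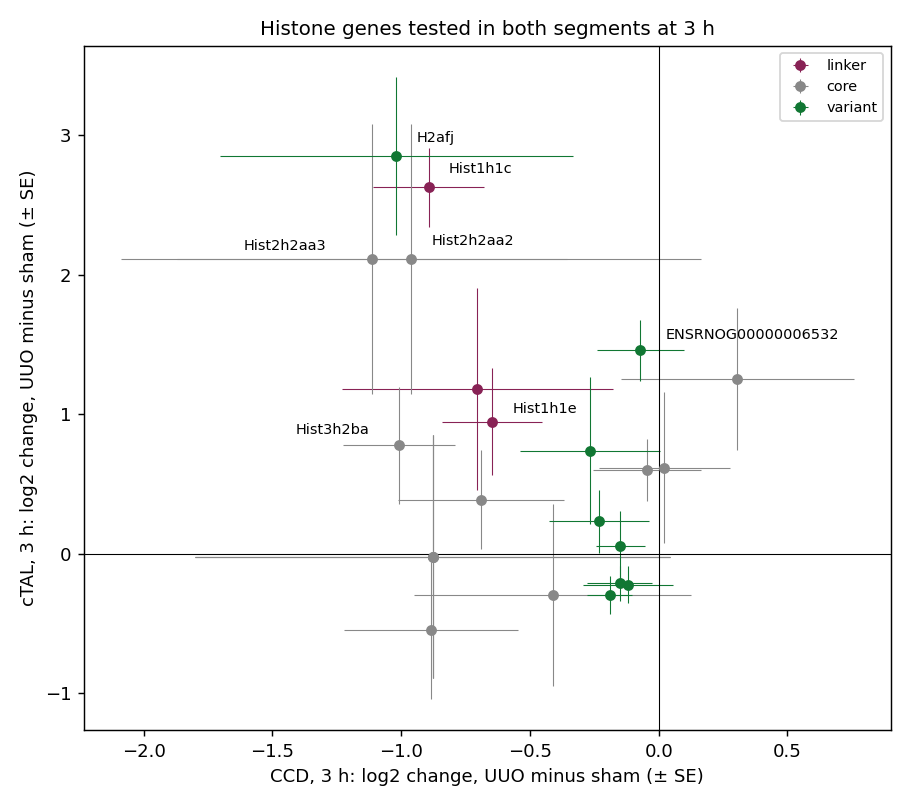
Log2 change (UUO minus sham, ± SE) of the 23 histone loci tested in both segments at 3 h, with CCD on the horizontal and cTAL on the vertical axis. Hist1h1c lies at -0.89 in CCD and 2.63 in cTAL, and 13 of the 23 loci lie below 0 in CCD and above 0 in cTAL. The share over all genes was not counted.

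Markers of other cells differed with obstruction at 3 h. Summed TPM of 8 proximal tubule markers was 269 to 984 in UUO against 13.8 to 219 in sham cTAL, and 239.7 to 1302 against 77.5 to 282 in CCD. Red blood cell markers, 5 loci, summed to 1834 to 11335 TPM in UUO against 30.4 to 3162 in sham cTAL, and to 1495 to 7897 against 26.4 to 1189 in CCD. Macrophage markers, 8 genes, ran opposite ways, at 72.3 to 234 TPM in UUO against 210.0 to 538 in sham cTAL and 85.9 to 134 against 46.6 to 89.3 in CCD. Principal cell markers, which define the CCD, summed to 5503 to 10052 TPM in UUO against 15907 to 18653 in sham CCD, and 5 of the 8 were called lower. Thick ascending limb markers, which define the cTAL, summed to 31341 to 35639 TPM in UUO against 35708 to 61213 in sham cTAL, with no overlap, and 1 of the 6 was called lower. Endothelial markers had 2 of 4 tested called lower in cTAL, the 1 lymphocyte marker tested there was called lower, and the 1 smooth muscle and pericyte marker tested in CCD was called higher. Intercalated cell and fibroblast markers had none called in either segment. No marker of the first 5 lists was at 0 throughout a group, and their part in the results was not tested. In dissected tubules fewer cells of a type and less RNA per cell cannot be told apart.

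The next question was whether the response differed between the segments at 3 h, tested on CCD minus cTAL within each number. Of 38 histone loci tested, 3 were called, all with a lower response in CCD, beside 1.08% of all 11515 genes tested, 0.530% called in that direction and 0.547% in the other. For Hist1h1c the CCD change minus the cTAL change was -3.52 ± 0.19 on the log2 scale (adjusted p = 4.16e-05), and it kept its call in all 17 alternatives (-3.74 to -3.30). For ENSRNOG00000006532 it was -1.53 ± 0.15 (adjusted p = 0.00346), also called in all 17. For Hist1h1e it was -1.59 ± 0.31 (adjusted p = 0.0416), but that call was lost in 15 of 17 alternatives, including each of the 8 fits that leave out 1 replicate.

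H2afj (-3.87 ± 0.85), H2afy2 (-1.87 ± 0.41) and Hist3h2ba (-1.79 ± 0.44) did not pass, with adjusted p of 0.0663, 0.0663 and 0.0872. Of the 38 loci, 30 had a difference below 0 and the median was -0.73, beside 0.01 over all genes. Only 23 of these loci passed the filter in cTAL, and for the others the difference can be mostly the CCD change. H2afy2 is such a locus, with a change of -1.57 in CCD alone. Of the 23 loci tested in both segments, 13 were below 0 in CCD and above 0 in cTAL, 8 were below 0 in both, 2 were above 0 in both and 0 were above 0 in CCD only. With loci that share reads merged (3 H4 loci and the pair Hist2h2aa2 and Hist2h2aa3), these counts were 12, 6, 2 and 0 of 20, and 27 of 35 segment differences lay below 0 (median -0.65). The same counts of direction were not made over all genes, so they describe the histone loci only.

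The sequences before the starts of Hist1h1c and Hist1h1e are shown because both linker genes were called for the difference between segments, with Hist3h2ba and H2afj, called in 1 segment each, for comparison. They are the 250 bases before the RefSeq start (build GRCr8), at chr17:41820454-41820703 (minus strand), chr17:41914175-41914424, chr10:44225171-44225420 and chr4:171406672-171406921 (plus strand), 5′ to 3′, and capitals mark the motif letters searched for.
Hist1h1c: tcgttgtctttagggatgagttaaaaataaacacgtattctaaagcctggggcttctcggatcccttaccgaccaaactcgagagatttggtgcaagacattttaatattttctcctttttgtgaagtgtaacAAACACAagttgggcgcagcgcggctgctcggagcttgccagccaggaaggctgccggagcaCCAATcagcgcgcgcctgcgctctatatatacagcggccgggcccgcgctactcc
Hist1h1e: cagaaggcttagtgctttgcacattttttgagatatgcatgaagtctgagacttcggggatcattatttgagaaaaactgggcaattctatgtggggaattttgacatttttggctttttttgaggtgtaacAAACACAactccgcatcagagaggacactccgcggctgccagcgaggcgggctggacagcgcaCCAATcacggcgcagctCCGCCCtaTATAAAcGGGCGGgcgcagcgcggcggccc
Hist3h2ba: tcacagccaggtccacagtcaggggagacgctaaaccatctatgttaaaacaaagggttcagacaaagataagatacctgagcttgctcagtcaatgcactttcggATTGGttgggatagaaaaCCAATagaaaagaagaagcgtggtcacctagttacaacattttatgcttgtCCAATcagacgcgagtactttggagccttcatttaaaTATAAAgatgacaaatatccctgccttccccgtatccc
H2afj: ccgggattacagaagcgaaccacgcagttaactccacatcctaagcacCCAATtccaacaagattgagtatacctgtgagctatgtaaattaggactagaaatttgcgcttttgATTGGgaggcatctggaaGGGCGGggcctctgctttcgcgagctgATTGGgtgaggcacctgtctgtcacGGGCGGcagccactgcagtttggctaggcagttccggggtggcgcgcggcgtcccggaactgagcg

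Both linker promoters hold AAACACA, the letters of the H1 box known from linker histone promoters, starting 117 bases before the start in Hist1h1c and 118 in Hist1h1e. Both also hold CCAAT starting 55 bases before the start. TATAAA starts 30 bases before the start of Hist1h1e and 38 before that of Hist3h2ba, which also has CCAAT or its reverse complement ATTGG at 3 places. H2afj has CCAAT or ATTGG at 3 places and GGGCGG at 2, and no TATAAA. Of the 57 loci 38 matched a RefSeq gene by symbol or synonym and 36 of these have a promoter in the RefSeq table, searched on both strands over 300 bases that run to 50 bases after the start. AAACACA was in 5 of 8 linker, 3 of 21 core and 0 of 7 variant promoters, beside 6.96% of all 27457. TATAAA was in 3 of 8 linker, 16 of 21 core and 2 of 7 variant promoters (14.3% of all), and ATTTGCAT, the octamer letters, in 10 of 21 core and none of the linker or variant ones (1.64% of all). CCAAT was in 30 of the 36 (37.7% of all) and GGGCGG in 16 (34.9% of all). TGACGTCA, the letters of the cAMP response element, was in 0 of 36 (1.91% of all), and TGANTCA, those of the AP-1 site, in 1 (7.33% of all). No 2 of these motifs share letters in the 4 sequences shown. A match of letters is a description and not a bound site.

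At 30 min no histone locus was called in either segment. In CCD 0 of 34 passed, beside 0.0264% of all 11369 genes tested (0.0176% lower and 0.00880% higher), and 5 had an unadjusted p under 0.05, all of them with a difference below 0. In cTAL 0 of 22 passed, beside 0.00910% of all 10993 genes, and 1 (Hist1h2an) had an unadjusted p under 0.05. Hist1h2an entered that test only through sham, the group in which it was higher. The shares of all genes with an unadjusted p under 0.05 were not counted, so these counts are descriptions. The median difference over all genes in CCD was itself -0.31. The arms of 4 CCD loci did not overlap (H2afx, H2afy, Hist2h2ac and Hist3h2ba), beside 10.9% of all genes tested, and the arms of all 22 cTAL loci overlapped, where 1.72% of all genes did not.

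H2afx had the smallest p in CCD at 30 min. It measured 7.99, 9.95, 16.8 and 12.3 TPM in sham and 0.99, 2.13, 3.63 and 5.80 TPM in UUO, so every UUO replicate lay below every sham replicate (-1.59 ± 0.38, adjusted p = 0.235). In cTAL it measured 1.17, 0.94, 2.73 and 3.02 TPM in sham and 0.77, 1.5, 1.36 and 4.40 TPM in UUO, which overlapped. H2afy in CCD measured 55.4, 73.1, 64.6 and 78.6 TPM in sham and 22.3, 26.7, 39.4 and 52.1 TPM in UUO (-0.90 ± 0.28, adjusted p = 0.254). With library 1 of each number alone, H2afx (-2.18), H2afy (-1.29) and the H2A gene Hist2h2ac (-3.25) were called lower in CCD. No other alternative called them there, and their log2 differences reached -1.01, -0.52 and, with the opposite sign, 0.47. The share of all genes called with library 1 alone was not counted, so these 3 calls are descriptions. The median over all genes in CCD at 30 min was itself -0.31, and -0.02 after median-of-ratios rescaling. The histone median moved with it, from -0.36 to -0.03.

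The linker genes were not called at 30 min. Hist1h1c measured 414, 824, 689 and 983 TPM in sham CCD and 527, 279, 609.9 and 397 TPM in UUO CCD (-0.74 ± 0.31, adjusted p = 0.298), and the arms overlapped. In cTAL it measured 131, 195, 128 and 279 TPM in sham and 122, 356, 234 and 136 TPM in UUO (0.15 ± 0.37, adjusted p = 1.00). Hist1h1a, the fourth linker gene to reach the filter, did so only in CCD, at 2.64 ± 1.45 TPM in sham and 2.09 ± 1.55 TPM in UUO. In the test of the difference between segments at 30 min 0 of 36 histone loci passed, as did 0 of all 12343 genes. The locus with the smallest p was H2afx (-1.55 ± 0.26, adjusted p = 0.0596), and it was called without the CCD library that stood apart (-1.51, adjusted p = 0.0348) and without UUO replicate 3 (-1.73).

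The H2A genes Hist2h2aa2 and Hist2h2aa3 could not be told apart. Their values were equal in all 16 cTAL libraries and in 23 of 32 CCD libraries, and in the other 9 they were unequal, where up to 844.7 TPM went to 1 locus. Their sum in CCD at 30 min was 128, 216, 201 and 184 TPM in sham and 8.22, 35.8, 70.6 and 97.2 TPM in UUO. The arms of the sum did not overlap, and when the 2 loci were summed in the fit of all genes, a setting chosen after the values were seen, the log2 difference was -2.06 ± 0.77 (adjusted p = 0.281). The remaining 36 core loci summed to 246 ± 35.7 TPM in sham and 216 ± 18.5 TPM in UUO. In cTAL at 3 h the sum was 40.6, 32.1, 11.2 and 1.20 TPM in sham and 9.50, 86.9, 209 and 96.9 TPM in UUO, which overlapped through UUO replicate 1 (2.25 ± 1.04, adjusted p = 0.186). The H4 loci Hist1h4m, Hist1h4b and Hist2h4, had the same value in every library, so they hold 1 measurement, although the counts of loci here list each of them. With these 3 taken as 1 and the Hist2h2aa pair as its sum, 27 of 31 measurements lay below 0 in CCD at 3 h (median -0.34) and 14 of 20 above 0 in cTAL (median 0.61). H3f3c, which RefSeq lists as a pseudogene, was at 654 to 986 TPM in group means and was not called in any comparison of UUO with sham.

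Without obstruction, histone genes were higher in CCD than in cTAL. At 30 min 21 of 30 loci tested were higher in sham CCD and 0 were lower, beside 54.9% of all 11648 genes called, 41.7% higher and 13.2% lower. At 3 h 20 of 29 were higher and 0 lower, beside 38.2% of 10521 called, 27.7% higher and 10.4% lower. Arms without overlap were seen for 16 of 30 loci at 30 min, beside 47.0% of all genes, and for 15 of 29 at 3 h, beside 39.8%. The median log2 difference of the histone loci (CCD minus cTAL) was 1.07 at the earlier and 1.24 at the later time, beside 0.30 over all genes at each time. After median-of-ratios rescaling the histone medians were 0.74 and 1.0, and those of all genes -0.0027 and 0.022.

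H2afy2, Hist2h2ac and other loci under 1 TPM in most sham cTAL replicates entered the comparison only through CCD, where they were high: 6 of the loci tested at each time had fewer than 2 cTAL replicates at 1 TPM, and 4 of these were called at each time. Called at both times were H2afy2, Hist1h2bo and the Hist2h3c2 locus ENSRNOG00000061185. Hist2h2ac was called at 30 min and the Hist2h3c2 locus ENSRNOG00000049198 at 3 h. The log2 differences of all these loci depend on the pseudocount, and their calls are descriptions. H2afy2 measured 11.2, 20.6, 14.8 and 22.1 TPM in sham CCD and 0.40, 0.33, 0.04 and 0.27 TPM in sham cTAL at 30 min (3.8 ± 0.21, adjusted p = 1.76e-05), and the difference at 3 h was 4.43 ± 0.22. The sum of Hist2h2aa2 and Hist2h2aa3 differed by 4.66 ± 0.29 at 30 min and 4.39 ± 0.57 at 3 h. Hist3h2ba differed by 2.82 ± 0.15 and 3.03 ± 0.27 at the 2 times. Its level in sham CCD at 30 min was 29.6 ± 7.49 TPM and in sham cTAL 3.40 ± 1.41 TPM. Hist1h1c differed by 1.98 ± 0.13 and 2.82 ± 0.12, Hist1h1d by 1.74 ± 0.14 and 2.55 ± 0.39, and Hist1h1e by 1.51 ± 0.35 and 1.24 ± 0.22.

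Of the core loci 10 of 17 were higher in CCD at 30 min and 11 of 17 at 3 h, beside 41.7% and 27.7% of all genes tested. These counts include loci tested only because of CCD. Hist2h2ac, tested only because of CCD, was called at 30 min (2.91 ± 0.28), with 13.7 ± 1.73 TPM in CCD and 0.91 TPM or less in cTAL, and did not pass the filter in the sham comparison at 3 h. The Hist1h2ao loci ENSRNOG00000054017 and ENSRNOG00000050933, H2A genes that share a symbol, were higher at 30 min (1.3 ± 0.09 and 1.79 ± 0.22) and at 3 h (1.48 ± 0.21 and 1.99 ± 0.34). The H2B genes Hist2h2be (1.11 ± 0.32 and 1.76 ± 0.27) and Hist1h2bo (0.57 ± 0.18 and 1.31 ± 0.24), the H2A gene Hist1h2an (1.5 ± 0.19 and 1.20 ± 0.27) and the H3 locus ENSRNOG00000061185 of Hist2h3c2 (2.10 ± 0.14 and 2.06 ± 0.40) were called at both times. Of these, Hist1h2bo and ENSRNOG00000061185 were tested only because of CCD. At 30 min Hist2h2be lost its call in 6 of 12 alternatives, among them the fits without sham replicate 1, 2 or 3, and Hist1h2bo in 8 of 12, among them those without replicate 2, 3 or 4. Hist1h2an at 3 h lost it in 3 of 13. Hist1h2bk (1.16 ± 0.21) and the Hist2h3c2 locus ENSRNOG00000049198 (1.38 ± 0.41) were called at 3 h only, lost in 2 of 13 and 9 of 13 alternatives (the second without sham replicate 2, 3 or 4 among them). ENSRNOG00000049198 was also tested at 3 h only because of CCD. No test compared the times. Of all the loci called in sham, 16 of 21 at 30 min and 14 of 20 at 3 h kept their call in every alternative. Among those that kept it are loci tested only because of CCD: H2afy2 and ENSRNOG00000061185 at both times, Hist2h2ac at 30 min and Hist1h2bo at 3 h. For these the kept call is a description.

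Of the variant genes 8 of 9 were higher in CCD at 30 min and 6 of 9 at 3 h, beside 41.7% and 27.7% of all genes tested. These counts include H2afy2, which was tested only because of CCD. H2afx differed by 2.00 ± 0.17 and 1.60 ± 0.30, H2afz by 1.07 ± 0.15 and 0.92 ± 0.09, and H2afy by 1.07 ± 0.14 and 0.63 ± 0.17. The call of H2afy at 3 h was lost in 7 of 13 alternatives, among them both rescalings, library 2 alone (0.20, adjusted p = 0.445), the fit without the libraries that stood apart (0.40) and those without sham replicate 2 or 3. ENSRNOG00000006532 differed by 0.94 ± 0.13 and 1.04 ± 0.07. ENSRNOG00000003220 differed by 0.64 ± 0.10 and 0.23 ± 0.07, and the last value was -0.094 (adjusted p = 0.443) after median-of-ratios rescaling and lost its call in 8 of 13 alternatives, each replicate left out among them. H2afv (0.76 ± 0.12) and H3f3c (0.35 ± 0.09) were called at 30 min only, the second lost in 5 of 12 alternatives (0.011 after median-of-ratios rescaling), and H2afj at neither time (0.50 ± 0.63 and 1.77 ± 0.59).

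**Figure D4:**
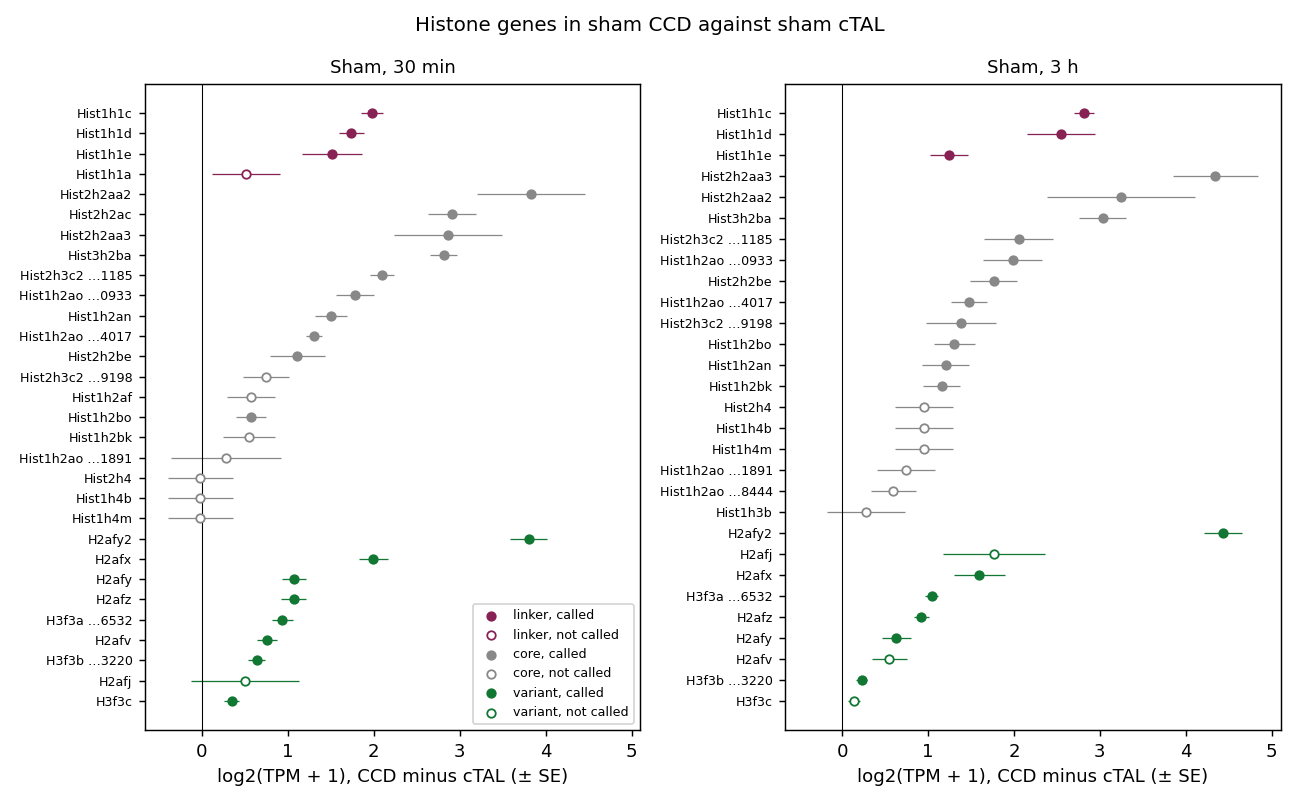
Log2(TPM + 1) in sham CCD minus sham cTAL (± SE) for each histone locus tested, at 30 min (left) and 3 h (right), coloured by class, with filled points called at an adjusted p under 0.05 and open points not called. All 21 loci called at 30 min and all 20 called at 3 h lie above 0, with H2afy2 at 3.8 and 4.43.

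Within the linker class the balance of Hist1h1e and Hist1h1c was measured in each replicate, which does not depend on how a library is scaled. The ratio of Hist1h1e to Hist1h1c TPM at 30 min was 0.384 to 1.34 in sham CCD, 0.589 to 2.61 in UUO CCD, 0.904 to 1.94 in sham cTAL and 0.992 to 3.03 in UUO cTAL. At 3 h it was 0.0197 to 0.0502, 0.0342 to 0.0528, 0.0407 to 0.195 and 0.0148 to 0.0524 in the same order. Every replicate at 3 h, sham included, lay below every replicate at 30 min. Hist1h1c made up 24.4% to 71.3% of the linker sum at 30 min and 82.6% to 97.7% at 3 h. Since each table was made by itself, time and table cannot be told apart here.

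**Figure D5:**
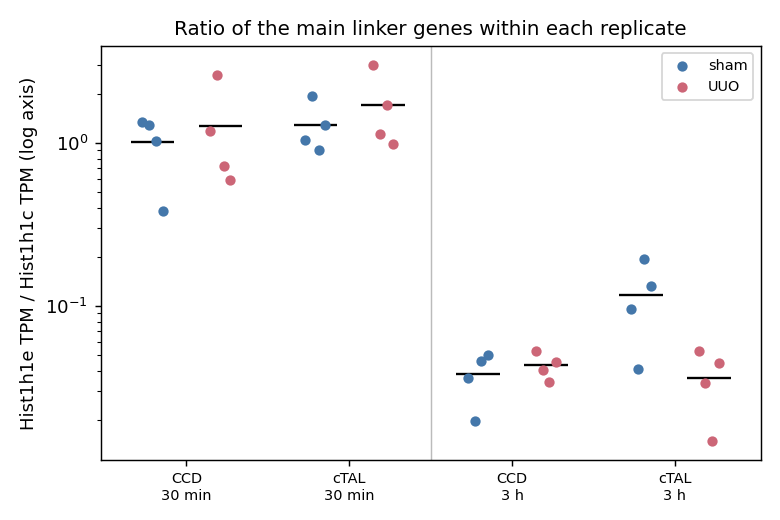
Ratio of Hist1h1e to Hist1h1c TPM within each of 4 replicates of sham and UUO, by segment and time, on a log axis with a black line at the mean. The 30 min ratios lie between 0.384 and 3.03 and the 3 h ratios between 0.0148 and 0.195, on either side of the line that separates the 2 tables.

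Genes that make, carry and place histones were read from 4 lists. In the list of histone mRNA processing and transcription, Lsm10, a part of the U7 particle that trims histone messages, fell at 3 h in both segments. Its level went from 54.7 ± 2.49 to 27.6 ± 6.396 TPM in CCD (-1.03 ± 0.17, adjusted p = 0.00963) and from 62.6 ± 6.77 to 25.1 ± 5.92 TPM in cTAL (-1.31 ± 0.20, adjusted p = 0.00507), and the call was kept in all 17 and all 14 alternatives. The CCD list had 2 of 9 genes lower, beside 8.04% of all genes, and the cTAL list 1 of 8, beside 7.64%, with none higher. These shares rest on 1 or 2 genes, and 1 of 8 is near the background. The second in CCD was Cpsf3, the endonuclease that cuts the message, from 42.4 ± 5.98 to 25.8 ± 5.09 TPM (-0.71 ± 0.17, adjusted p = 0.0257), lost in 7 of 17 alternatives.

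Of the complexes that exchange H2A.Z, 4 of 7 genes tested fell in cTAL at 3 h, beside 7.64% of all genes, and 1 of 8 in CCD, near the 8.04% of all genes there. None rose. The ATPase gene Ruvbl1 went from 35.0 ± 5.37 to 16.5 ± 4.30 TPM in cTAL (-1.07 ± 0.23, adjusted p = 0.0197) and its partner Ruvbl2 from 46.3 ± 7.29 to 25.8 ± 3.77 TPM (-0.82 ± 0.19, adjusted p = 0.0225), each call lost in 2 of 14 alternatives. Dmap1, a further subunit, differed by -0.89 ± 0.24 (adjusted p = 0.0432) and lost its call in 12 of 14. The fourth was Vps72, which encodes YL1, a chaperone that binds H2A.Z in these complexes, and which was named after its value was seen. In CCD Ruvbl2 fell from 65.6 ± 7.001 to 38.9 ± 10.7 TPM (-0.78 ± 0.20, adjusted p = 0.0328), lost in 9 of 17. The list medians were -0.80 in cTAL and -0.37 in CCD, beside -0.12 and -0.14 over all genes.

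Among histone chaperones 1 of 19 loci fell in CCD at 3 h, not above the 8.04% of all genes, and 0 of 18 were called in cTAL, beside 11.7%. The called gene was Chaf1b, a subunit of the assembly factor that follows the replication fork, from 7.17 ± 0.83 to 3.74 ± 1.56 TPM (-0.82 ± 0.23, adjusted p = 0.0465), and 14 of 17 alternatives lost the call. In the list of S phase and proliferation genes 1 of 22 fell in CCD at 3 h and 0 of 21 were called in cTAL, also not above those shares. That gene was Tyms, which makes thymidylate for DNA synthesis, from 46.3 ± 4.36 to 29.3 ± 2.82 TPM (-0.64 ± 0.12, adjusted p = 0.0141), lost in 4 of 17. The median S phase difference was -0.10 in each segment at 3 h, beside -0.14 and -0.12 over all genes. No gene of the 4 lists was called at 30 min in a comparison of UUO with sham. The smallest p there belonged to Cdk1, the mitotic kinase gene, in cTAL (31.5 ± 7.21 TPM in sham and 15.5 ± 4.23 TPM in UUO, -0.99 ± 0.23, adjusted p = 1.00) and to Ccne1, the cyclin E gene, in CCD (-0.74 ± 0.20, adjusted p = 0.242).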

How the data were processed

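The deposited values are TPM per gene, made by the authors with STAR 2.7.3 and RSEM 1.3.3 on the rat build Rnor_6.0 per the submitters' processing notes, with a separate table for each time. Strand use is not given in the sources used here, so antisense partners could not be told apart. Whole-kidney samples (8) were not analysed here. The 2 libraries of a CCD number were averaged, as TPM for the filter and printed levels and as log2(TPM + 1) for tests. Genes that reached 1 TPM in 4 or more replicates were tested with limma 3.58.1 (trend) in R 4.3.3, with Benjamini-Hochberg adjustment over all genes tested in each of 8 comparisons. Scripts were tested on simulated data. Named loci are those called in any comparison, linker and variant genes past the filter, the 8 most abundant core loci, and up to 3 called genes per pathway list and comparison (otherwise the smallest p); others were chosen after their values were seen. The histone loci, lists and tests were chosen with earlier results of these data known. Deviations of same-numbered sham and UUO samples correlated at 0.115 to 0.229 in CCD at 30 min. Sham number 4 correlated better with another UUO number, so pairing is not settled there, and the block changed no histone call. Deviations of same-numbered CCD and cTAL samples, which the segment tests subtract, correlated at 0.0608 to 0.541. Python 3.11.15, pandas 2.3.3, the R package data.table (version 1.17.8) and matplotlib 3.10.9 were also used.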

Additional observations from a re-analysis of the deposited data

Results flagged for a closer look

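The response to obstruction at 3 h differed between segments, by a test of the difference itself, for Hist1h1c (-3.52, CCD change minus cTAL change on the log2 scale), ENSRNOG00000006532 (-1.53) and Hist1h1e (-1.59), the last with little stability over alternatives.

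A single replicate stood far from the other 3 in 12 of 184 groups checked, by Dixon's criterion, which chance passes in about 1 group in 20. Among variant genes these were H2afz in UUO CCD at 3 h (680.6 TPM, the lowest), H2afy in UUO cTAL at 30 min (55.5 TPM) and H2afy in sham CCD at 3 h (88.4 TPM). Among linker genes they were Hist1h1e in UUO cTAL at 30 min (135 TPM, the lowest) and Hist1h1d in sham CCD at 30 min (24.6 TPM), in UUO CCD at 30 min (27.8 TPM) and in UUO CCD at 3 h (19.7 TPM). Among core loci they were Hist3h2ba in UUO cTAL at 3 h (2.78 TPM, the lowest), Hist2h2be in UUO CCD at 30 min (18.9 TPM), Hist2h2aa3 in UUO CCD at 3 h (279 TPM), the Hist1h2ao locus ENSRNOG00000050933 in sham cTAL at 3 h (30.8 TPM) and Hist1h2an in sham CCD at 30 min (4.28 TPM).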

How the results depend on the processing

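The alternatives were a pseudocount of 0.1 TPM, no filter, median-of-ratios and quantile rescaling, the replicate block, each CCD library alone, each replicate left out and, chosen after the data were seen, leaving out CCD libraries that stood apart and summing Hist2h2aa2 with Hist2h2aa3. With library 1 of each CCD number alone, 3 histone loci were called lower in CCD at 30 min in place of 0, 1 in place of 3 in CCD at 3 h, and 3 in place of 0 for the segment difference at 30 min. Without the libraries that stood apart that last count was 1. Leaving out 1 replicate gave 2 to 6 called lower in CCD at 3 h, 3 to 6 called higher in cTAL at 3 h, 0 to 2 lower for the segment difference at 30 min and 0 to 1 lower in sham CCD at 30 min. Without sham replicate 1 that last was a Hist1h2ao locus (-0.66). The 6 called higher in cTAL count Hist2h2aa2 and Hist2h2aa3, which hold 1 measurement there, as 2 loci. Shares of all genes called were not counted for these fits, so the counts are descriptions. ENSRNOG00000003220 in sham at 3 h, 0.23 higher in CCD, was -0.094 after median-of-ratios rescaling. With the replicate block, 3 histone loci were called lower in CCD and 3 higher in cTAL at 3 h, as without it, and 0 in either segment at 30 min. Outside CCD at 30 min the correlations of same-numbered sham and UUO samples ran from -0.233 to 0.179, and the main tests of obstruction assumed no pairing by number. With the segments taken as independent samples (no replicate block), 19 and 18 loci in place of 21 and 20 were higher in sham CCD, and 3 were called for the segment difference at 3 h, with H2afy2 (-1.87, adjusted p = 0.0354) in place of Hist1h1e. With the block, Chaf1b, Cpsf3, Ruvbl2 and Tyms in CCD and Dmap1 in cTAL lost their calls. TPM keep no depth, so no detection limit was given.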
